A study of Mus musculus with 26 samples.

Results

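Afadin is a scaffold protein of cell junctions, and 9 of the 50686 genes listed were followed here in brown adipose tissue (BAT): Afdn, which encodes it, the nectin genes Nectin1, Nectin2, Nectin3 and Nectin4, and the junction partners Tjp1, Ctnna1, Ssx2ip and Lmo7. They were chosen by name for their place in the same junction, with earlier results of these data known. The BAT came from 26 male mice on a C57BL/6J background, aged 12 to 16 weeks and housed singly, and was profiled by RNA-sequencing. Mice carrying a floxed Mllt4 gene (the older name of Afdn) and Adiponectin-Cre are labelled FAKO, and control mice were littermates. The sample labels read KO for the former and WT for the latter, and FAKO and control are the study's names. All mice spent 2 weeks at thermoneutrality, which the sample labels give as 30 °C and the study's methods as 29 °C. BAT was taken there from 7 control mice and 7 mice labelled FAKO, and after 6 h at 5 °C from 5 control mice and 7 mice labelled FAKO. The adiponectin promoter drives Cre in the adipocytes of both brown and white fat, so other cells of the depot keep the gene.

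Afadin binds the inner tails of nectins and actin filaments, and so ties the membrane to the cytoskeleton. Nectins are immunoglobulin-like adhesion molecules that pair between neighbouring cells, where they start adherens junctions together with cadherins. In this chain Ctnna1 encodes alpha-catenin, the actin-binding link of cadherins, Tjp1 encodes the tight junction scaffold ZO-1, and the products of Ssx2ip (ADIP) and Lmo7 join afadin to alpha-actinin. Adherens and tight junctions are best known from epithelium and endothelium, and BAT holds a dense capillary bed among its adipocytes.

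The deposited values are read counts per gene, and the total per mouse ran from 12705969 to 25732258. The 15 brown adipocyte markers looked at were all detected, with a summed level of 7133 to 9018 normalized counts (CPM, counts scaled to a common library size with TMM factors) in each mouse at thermoneutrality and 28564 to 36410 after cold. The higher sum came mostly from Ucp1 (means of 985.4 and 16005 CPM in control mice), Fabp4 (3759 and 7133) and Dio2 (24.6 and 3152), while the means of Adipoq (959.5 and 561.4), Adrb3, Ebf2 and Prdm16 were lower after cold. Markers of epithelium and mesothelium had means of at most 0.132 CPM in all 4 groups, apart from Lrrn4 (4.31 to 6.29 CPM) and Krt7 (0.181 to 1.16 CPM), which alone of the 10 passed the filter on low counts, and Cdh1, the epithelial cadherin, stood at a mean of 0.111 CPM in control mice at thermoneutrality. The 12 endothelial markers summed to 846.3 to 1295 CPM at thermoneutrality and 1014 to 1360 CPM after cold, and they went both ways. In control mice the means of Pecam1 (123 and 267.5 CPM), Cdh5 and Kdr were higher after cold, and those of Tie1 (87.7 and 51.9 CPM), Tek, Egfl7, Emcn and Erg were lower. Skeletal muscle markers ranged from 1.24 to 8003 CPM in sum and spread widely within all 4 groups. Mitochondrial transcripts took 14.3 to 40.5% of the counts. At thermoneutrality their median share was 37.2% in control mice and 28.3% in mice labelled FAKO, and after cold 27.6% and 28.0%. Replicate 7 of the control mice at thermoneutrality had the lowest share of all mice. In whole tissue, fewer cells of a type and less RNA per cell cannot be told apart.

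Afdn (ENSMUSG00000068036.14) lies on chromosome 17 of mm10 from 13760539 to 13906150 on the plus strand. Control mice at thermoneutrality had 151.5 to 213.7 CPM of Afdn with a median of 200.03, and a mean of 196 ± 21.0 (SD, n = 7). Mice labelled FAKO at thermoneutrality had 153.5 to 230.5 CPM with a median of 204 and a mean of 195 ± 27.4 (SD, n = 7). The ranges of these groups lay almost on top of each other. After cold, the 5 control mice had 67.9, 75.5, 71.2, 73.7 and 79.2 CPM, with a mean of 73.5 ± 4.28 (SD, n = 5). The 7 mice labelled FAKO had 53.3 to 65.3 CPM with a median of 57.9 and a mean of 58.5 ± 4.15 (SD, n = 7). Every mouse after cold was below every mouse at thermoneutrality, and after cold every mouse labelled FAKO was below every control mouse.

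**Figure D1:**
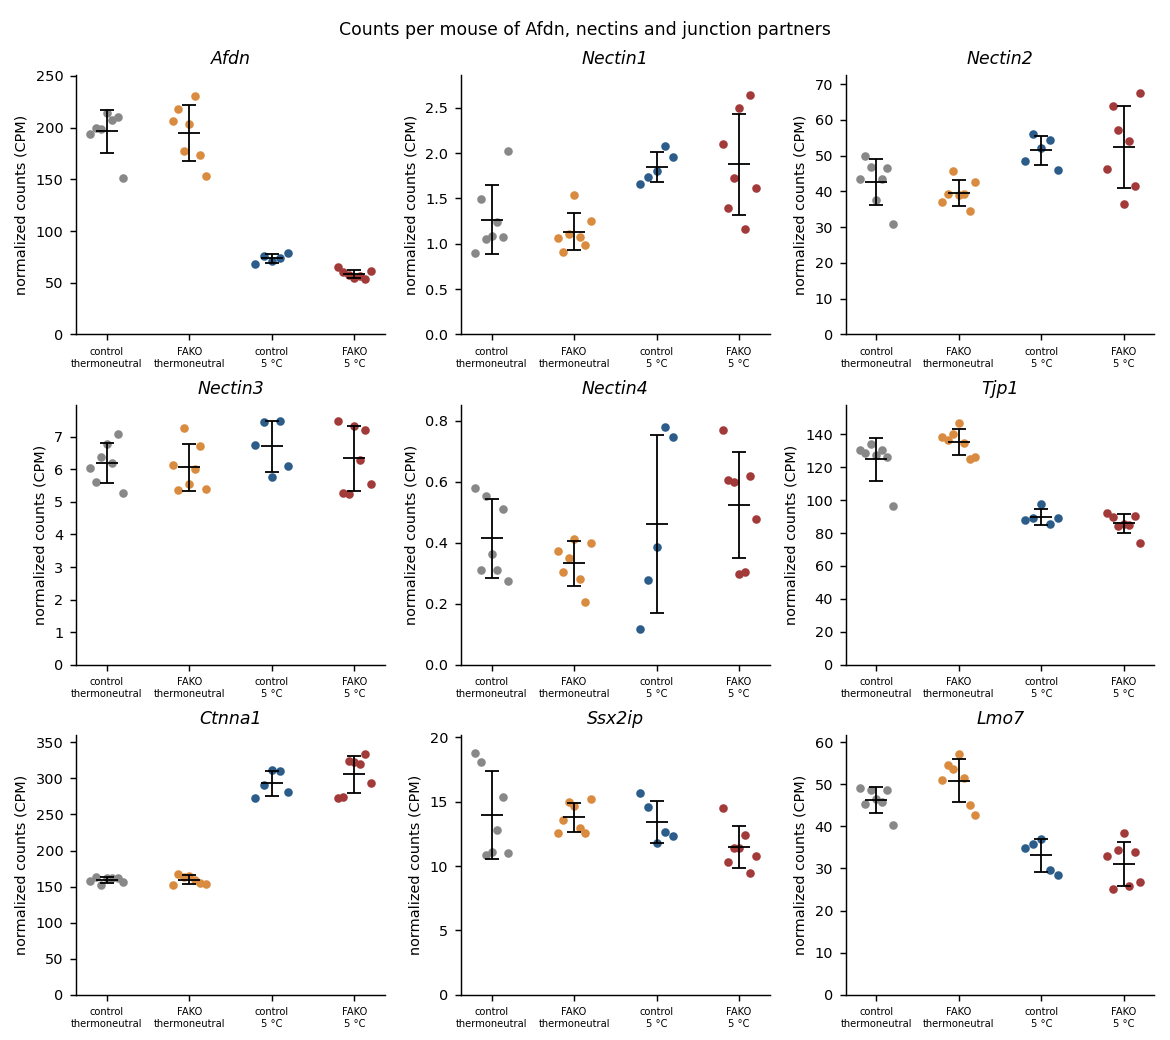
Normalized counts (CPM) of the 9 genes in each mouse, with 1 point per mouse and the mean and SD of each group as bars. After cold, Afdn fell to 53.3 to 79.2 CPM from 151.5 to 230.5 CPM, Ctnna1 rose in both genotypes, and the points of Nectin3 and Ssx2ip overlap across the groups.

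The cold response of Afdn was measured within each genotype, and the 2 comparisons share no mice. Afdn fell by 1.42 log2 units in control mice after cold (SE 0.09, adjusted p = 3.82e-13, edgeR quasi-likelihood test, Benjamini-Hochberg), to a level 2.67-fold lower. In mice labelled FAKO it fell by 1.74 (SE 0.08, adjusted p = 7.67e-16, edgeR quasi-likelihood test, Benjamini-Hochberg), 3.33-fold lower. Among all genes tested, 8.6% had a lower log2 fold change than Afdn in control mice and 4.9% in mice labelled FAKO. With a skeletal muscle marker score as a covariate, a setting chosen after seeing the data, Afdn passed the threshold in both genotypes.

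Between the genotypes, Afdn was compared first, by its mRNA count in whole tissue. Such a count cannot check the level of afadin protein, which the study measured by immunoblotting. At thermoneutrality the log2 fold change of Afdn in mice labelled FAKO against control mice was -0.01 (95% interval -0.18 to 0.15, adjusted p = 0.992, edgeR quasi-likelihood test, Benjamini-Hochberg). The mRNA count of this gene thus did not separate the labels at that temperature, and the groups follow the KO and WT of the sample labels. Which exons the floxed allele removes is not given in the sources used here, and a gene-level count sums all exons. After cold the log2 fold change was -0.33 (SE 0.09, 95% interval -0.51 to -0.15). The unadjusted p was 0.000884 and the adjusted p, by the same edgeR test, was 0.116, which missed the threshold. DESeq2's Wald test put its adjusted p at 0.0478, and over the alternatives the adjusted p ran from 0.0478 to 0.358. Groups without overlap and with the FAKO label lower were seen in 0.781% of genes after cold. The difference of the cold responses was -0.32 for Afdn (SE 0.12, adjusted p = 0.179, edgeR quasi-likelihood test, Benjamini-Hochberg).

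Across the group, 5 of the 8 genes tested changed with cold in control mice, where 65% of all genes tested passed the threshold of an FDR below 0.05. Of these, Nectin1 and Ctnna1 rose (31.6% of all genes rose) and Afdn, Tjp1 and Lmo7 fell (33.4% of all genes fell). Among mice labelled FAKO 7 of 8 changed, where 68.6% of all genes did. Nectin1, Nectin2 and Ctnna1 rose (33.7% of all genes) and Afdn, Tjp1, Ssx2ip and Lmo7 fell (34.9% of all genes). With 8 genes, neither count stands apart from the share over all genes. Nectin4, with 2 to 15 counts per mouse, did not pass the filter on low counts and was not tested. Over the same mice the summed mural cell markers lay between 701.2 and 938.2 CPM at thermoneutrality and between 562.3 and 732.5 CPM after cold. In control mice the lower sum came mostly from Rgs5 (means of 494.1 and 390.6 CPM) and Cspg4 (79.5 and 22.8 CPM), while the means of Acta2 (17.2 and 26.2 CPM), Tagln and Cnn1 were higher after cold. The part of other cell types in the changes of these genes was not tested.

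Tjp1 (ENSMUSG00000030516.14, chromosome 7, 65296165 to 65527781, minus strand) encodes ZO-1, which also binds afadin. Control mice at thermoneutrality had 96.2 to 134.4 CPM of Tjp1 with a median of 128.9, and mice labelled FAKO had 125 to 146.9 with a median of 136.8. After cold, control mice had 87.7, 89.0, 97.8, 85.5 and 88.9 CPM, and mice labelled FAKO had 74.1 to 92.3 with a median of 85.4. The groups did not overlap between the temperatures in mice labelled FAKO, where 19.3% of all genes were lower after cold without overlap. In control mice 1 mouse after cold (97.8 CPM) lay above 1 mouse at thermoneutrality (96.2 CPM). With cold, Tjp1 fell by 0.48 log2 units in control mice (SE 0.07, adjusted p = 1.1e-06, edgeR quasi-likelihood test, Benjamini-Hochberg). Its log2 fold change in mice labelled FAKO was -0.66 (SE 0.06, adjusted p = 6e-10, edgeR quasi-likelihood test, Benjamini-Hochberg).

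Lmo7 (ENSMUSG00000033060.15, chromosome 14, 101729957 to 101934710, plus strand) encodes a LIM domain protein that binds afadin. At thermoneutrality its level was 40.2 to 49.0 CPM (median 46.5) in control mice and 42.8 to 57.2 CPM (median 51.5) in mice labelled FAKO. After cold, control mice had 34.9, 35.8, 37.1, 29.6 and 28.3 CPM, and mice labelled FAKO had 25.0 to 38.4 with a median of 32.99. Within both genotypes every mouse after cold was below every mouse at thermoneutrality. Such groups without overlap and lower after cold made up 22.9% of all genes in control mice and 19.3% in mice labelled FAKO. With cold, Lmo7 fell by 0.48 log2 units in control mice (SE 0.10, adjusted p = 0.00012, edgeR quasi-likelihood test, Benjamini-Hochberg). The log2 fold change in mice labelled FAKO was -0.71 (SE 0.09, adjusted p = 9.29e-08, edgeR quasi-likelihood test, Benjamini-Hochberg).

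Afdn, Tjp1 and Lmo7 are the members that fell with cold in both genotypes, and the 250 bases before their RefSeq starts (GRCm38.p6) are shown for that reason, 5′ to 3′ on the strand of the gene. Capitals mark GC boxes, GGGCGG or its complement CCGCCC, the letters that the factor Sp1 is known to bind. The windows are chr17:13760291-13760540 on the plus strand for Afdn, chr7:65371245-65371494 on the minus strand for Tjp1, and chr14:101729678-101729927 on the plus strand for Lmo7, which has a further window inside the gene with no GC box. The Tjp1 window also lies inside the span of the gene given above.
Afdn: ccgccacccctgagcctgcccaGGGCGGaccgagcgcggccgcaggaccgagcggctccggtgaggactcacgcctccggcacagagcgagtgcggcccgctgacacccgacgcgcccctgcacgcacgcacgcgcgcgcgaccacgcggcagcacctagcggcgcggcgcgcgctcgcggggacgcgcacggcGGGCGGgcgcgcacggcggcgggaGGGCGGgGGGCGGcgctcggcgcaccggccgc
Tjp1: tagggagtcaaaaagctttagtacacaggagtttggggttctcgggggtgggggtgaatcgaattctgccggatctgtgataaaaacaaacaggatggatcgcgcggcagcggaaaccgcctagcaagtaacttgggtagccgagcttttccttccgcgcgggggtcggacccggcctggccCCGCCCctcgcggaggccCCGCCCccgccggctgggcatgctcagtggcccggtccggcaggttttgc
Lmo7: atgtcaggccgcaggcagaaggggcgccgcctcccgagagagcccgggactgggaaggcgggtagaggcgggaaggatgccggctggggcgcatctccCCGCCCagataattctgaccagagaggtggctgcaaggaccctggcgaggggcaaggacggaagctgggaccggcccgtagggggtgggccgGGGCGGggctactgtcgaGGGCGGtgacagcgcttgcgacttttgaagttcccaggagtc

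The Afdn window held 82.8% G and C and 4 GC boxes, the Tjp1 window 63.2% and 2, and the Lmo7 window 68.8% and 3. RefSeq windows were found for 7 of the 9 genes, 8 windows in all, and Nectin1 and Ctnna1 had none. A GC box on either strand was in 6 of the 8 windows, against 32.7% of 32851 windows of all genes, a search added after the windows had been read. The cAMP response element TGACGTCA was in 0 of the 8 windows (1.55% of all windows), and its half-site TGACG, which lies within the full element, was also in 0 of 8 (17.8%). These letters describe the windows and say nothing of the binding of a factor.

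Ctnna1 (ENSMUSG00000037815.6, chromosome 18, 35118859 to 35254779, plus strand), the alpha-catenin gene, moved the opposite way to Afdn. At thermoneutrality it stood at 152.7 to 163.3 CPM (median 161.4) in control mice and 152.5 to 167.4 CPM (median 158.8) in mice labelled FAKO. After cold, control mice had 272.4, 290.4, 311.4, 310.5 and 280.7 CPM, and mice labelled FAKO had 272.5 to 334 with a median of 320.0. No mouse after cold overlapped with any mouse at thermoneutrality, a separation with cold higher that 23.5% of all genes showed in control mice and 21.1% in mice labelled FAKO. Cold raised Ctnna1 by 0.88 log2 units in control mice (SE 0.05, adjusted p = 1.18e-13, edgeR quasi-likelihood test, Benjamini-Hochberg), or 1.84-fold. It rose by 0.94 log2 units in mice labelled FAKO (SE 0.05, adjusted p = 5.88e-15, edgeR quasi-likelihood test, Benjamini-Hochberg), or 1.92-fold.

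Ssx2ip (ENSMUSG00000036825.12, chromosome 3, 146404642 to 146440144, plus strand), which encodes the afadin-binding protein ADIP, had the most overlap of the partners. Control mice had 10.9 to 18.8 CPM (median 12.8) at thermoneutrality and 15.7, 14.6, 11.8, 12.7 and 12.3 CPM after cold. Mice labelled FAKO had 12.6 to 15.2 CPM (median 13.6) and, after cold, 9.45 to 14.5 CPM (median 11.4). Within each genotype the ranges crossed. The log2 fold change was -0.06 in control mice (SE 0.13, 95% interval -0.33 to 0.21, adjusted p = 0.695, edgeR quasi-likelihood test, Benjamini-Hochberg). Ssx2ip fell by 0.27 log2 units in mice labelled FAKO (SE 0.12, adjusted p = 0.0486, edgeR quasi-likelihood test, Benjamini-Hochberg), a call that was lost in 4 alternatives (highest adjusted p 0.0606) and when any of 7 mice was left out (highest adjusted p 0.106).

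Nectin2 (ENSMUSG00000062300.14, chromosome 7, 19716644 to 19750483, minus strand) was the nectin with most counts. Its level was 30.8 to 50.1 CPM (median 43.6) in control mice and 34.6 to 45.7 CPM (median 39.3) in mice labelled FAKO at thermoneutrality. After cold, control mice had 48.5, 56.2, 52.2, 54.3 and 46.1 CPM, and mice labelled FAKO had 36.5 to 67.4 CPM with a median of 54.1. Most mice after cold were higher than most at thermoneutrality, but the groups overlapped in both genotypes, and the mice labelled FAKO after cold were the most spread. The log2 fold change with cold was 0.27 in control mice (SE 0.12, 95% interval 0.015 to 0.52, adjusted p = 0.0587, edgeR quasi-likelihood test, Benjamini-Hochberg), just short of the threshold. Nectin2 rose by 0.40 in mice labelled FAKO (SE 0.11, adjusted p = 0.00296, edgeR quasi-likelihood test, Benjamini-Hochberg), a call lost with library size alone as the scaling (log2 fold change 0.10) and with upper-quartile factors (0.25).

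Nectin1 (ENSMUSG00000032012.8, chromosome 9, 43743984 to 43807461, plus strand) was low, at 14 to 47 counts per mouse. Its level was 0.902 to 2.02 CPM (median 1.09) in control mice and 0.913 to 1.53 CPM (median 1.08) in mice labelled FAKO at thermoneutrality. After cold, control mice had 1.66, 1.74, 1.80, 2.08 and 1.959 CPM, and mice labelled FAKO had 1.16 to 2.64 CPM with a median of 1.72. In control mice only replicate 7 at thermoneutrality (2.02 CPM) reached the range after cold. With cold, Nectin1 rose by 0.53 log2 units in control mice (SE 0.20, adjusted p = 0.0231, edgeR quasi-likelihood test, Benjamini-Hochberg). Its increase in mice labelled FAKO was 0.73 log2 units (SE 0.19, adjusted p = 0.00125, edgeR quasi-likelihood test, Benjamini-Hochberg). In control mice the call was lost without replicate 1 at thermoneutrality or replicate 19 after cold (highest adjusted p 0.0563), and with library size alone (adjusted p = 0.152), upper-quartile factors (0.0586) or every gene of at least 1 count (0.0533). The call in mice labelled FAKO was also lost with library size alone (adjusted p = 0.095).

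Nectin3 (ENSMUSG00000022656.15, chromosome 16, 46387706 to 46498525, minus strand), known as the favoured partner of nectin-1 across the cell contact, was close to level. It stood at 5.28 to 7.09 CPM (median 6.18) in control mice and 5.38 to 7.28 CPM (median 6.01) in mice labelled FAKO at thermoneutrality. After cold, control mice had 6.76, 7.46, 5.75, 7.48 and 6.11 CPM, and mice labelled FAKO had 5.24 to 7.48 CPM with a median of 6.28. All 4 groups overlapped. The log2 fold change with cold was 0.11 in control mice (95% interval -0.12 to 0.34, adjusted p = 0.381) and 0.06 in mice labelled FAKO (95% interval -0.15 to 0.27, adjusted p = 0.591, both by edgeR quasi-likelihood test, Benjamini-Hochberg). With library size alone its sign turned in both genotypes, to -0.0017 and -0.25. Nectin4 (ENSMUSG00000006411.12, chromosome 1, 171370099 to 171388598, plus strand), best known from epithelium, had 0.119 to 0.780 CPM over all mice and no call in any comparison when the filter was dropped.

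**Figure D2:**
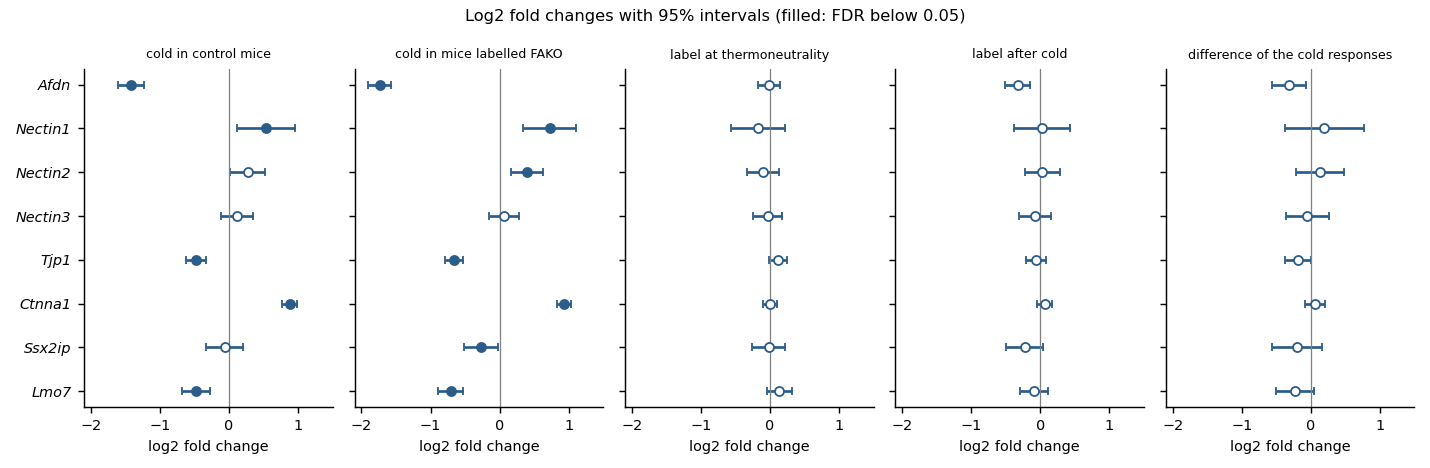
Log2 fold changes of the 8 genes tested in the 5 comparisons, with 95% intervals. Filled points passed an FDR of 0.05. Cold lowered Afdn by 1.42 and 1.74 and raised Ctnna1 by 0.88 and 0.94, and in the comparisons of the label and in the difference every point is open.

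The mice labelled FAKO stood near the control mice at thermoneutrality in all 8 genes tested, Afdn among them. After cold Afdn had the widest log2 fold change of the 8 (-0.33). At thermoneutrality 0 of the 8 genes tested passed the threshold in edgeR (0.081% of all genes did), and 0 had an unadjusted p below 0.05 (7.65% of all genes). DESeq2 called 0 of the 8, and 48 of all 17286 genes. The widest log2 fold changes were those of Nectin1 (-0.18, 95% interval -0.57 to 0.22), Lmo7 (0.13, -0.048 to 0.32) and Tjp1 (0.12, -0.011 to 0.25). After cold 0 of 8 passed in edgeR (0.139% of all genes), and 1, Afdn, had an unadjusted p below 0.05 (13.4% of all genes). DESeq2 called 1 of the 8, also Afdn, and 197 of all 17286 genes. Ssx2ip had a log2 fold change of -0.23 (95% interval -0.49 to 0.042), Lmo7 -0.09 (-0.30 to 0.11), Tjp1 -0.06 (-0.21 to 0.077) and Ctnna1 0.06 (-0.049 to 0.17). These intervals limit, but do not exclude, differences of the label in these genes.

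The difference of the cold responses between the genotypes was tested for each gene as an interaction. In edgeR 0 of the 8 genes passed (1.16% of all genes did), and 1, Afdn, had an unadjusted p below 0.05 (16.2% of all genes). DESeq2 called 0 of the 8, and 488 of all 17286 genes. The difference was -0.23 for Lmo7 (95% interval -0.50 to 0.044), -0.21 for Ssx2ip (-0.57 to 0.16) and -0.18 for Tjp1 (-0.37 to 0.0087), and all 3 intervals include 0. It was 0.20 for Nectin1 (-0.37 to 0.76), 0.13 for Nectin2 (-0.22 to 0.48), 0.06 for Ctnna1 (-0.091 to 0.21) and -0.05 for Nectin3 (-0.36 to 0.26).

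To compare levels between the genes, CPM were divided by the length of each gene's exons in kb. At thermoneutrality in control mice the order was Ctnna1 with a level of 24.8 CPM per kb, Afdn with 19.2, Tjp1 with 16.0, Nectin2 with 12.2, Lmo7 with 3.87, Ssx2ip with 3.33, Nectin3 with 0.486, Nectin1 with 0.224 and Nectin4 with 0.111. Among neighbours in this order, Afdn overlapped Tjp1, Tjp1 overlapped Nectin2, and Lmo7 overlapped Ssx2ip. After cold in control mice Ctnna1 stood first with 45.6 CPM per kb, followed by Nectin2 with 14.7, Tjp1 with 11.5 and Afdn with 7.19, and none of these 4 overlapped its neighbour. Afdn thus moved from rank 2 to rank 4, and in mice labelled FAKO it also moved from rank 2 (19.1 CPM per kb) to rank 4 (5.72), where Nectin2 and Tjp1 overlapped. Divided by the mean transcript length, these ranks of Afdn were the same, and only Lmo7 and Ssx2ip traded places after cold.

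**Figure D3:**
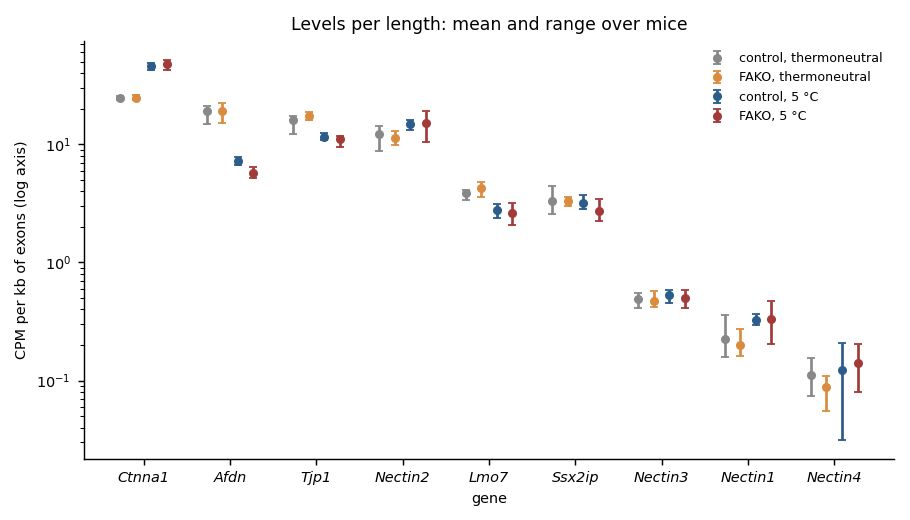
Level of each gene in CPM per kb of exons on a log axis, with the mean of each group as a point and the range over mice as a bar. Afdn stands next to Ctnna1 at thermoneutrality and below Tjp1 and Nectin2 after cold, while Nectin3, Nectin1 and Nectin4 stay below 1 CPM per kb.

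Within the nectin family, Nectin2 made up nearly all of the transcript level per length. Its share of the summed level per kb was 93.6 ± 1.16% in control mice at thermoneutrality and 93.8 ± 0.787% after cold (SD, n = 7 and n = 5). In mice labelled FAKO the share was 93.7 ± 0.563% and 93.6 ± 2.36% (SD, n = 7 each). These shares differed by less than the spread between mice. With the mean transcript length in place of all exons the mean shares were 86.4 to 87.7%.

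Ratios of raw counts within a mouse need no scaling between libraries. The ratio of Afdn to Ctnna1 counts was 0.966 to 1.32 (median 1.28) in control mice at thermoneutrality and 0.996 to 1.45 (median 1.23) in mice labelled FAKO. After cold it was 0.229 to 0.282 (median 0.249) in control mice and 0.159 to 0.240 (median 0.179) in mice labelled FAKO. The temperatures were far apart, and the genotypes overlapped. The mean ratio of Afdn to Tjp1 went from 1.57 ± 0.0780 (SD, n = 7) to 0.820 ± 0.0674 (SD, n = 5) in control mice, and from 1.44 ± 0.176 to 0.684 ± 0.0729 (SD, n = 7 each) in mice labelled FAKO. Against Nectin2 it went from 4.65 to 1.44 and from 4.96 to 1.16. Against Lmo7 it went from 4.24 to 2.25 and from 3.83 to 1.93. None of these 4 ratios overlapped between the temperatures in either genotype.

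**Figure D4:**
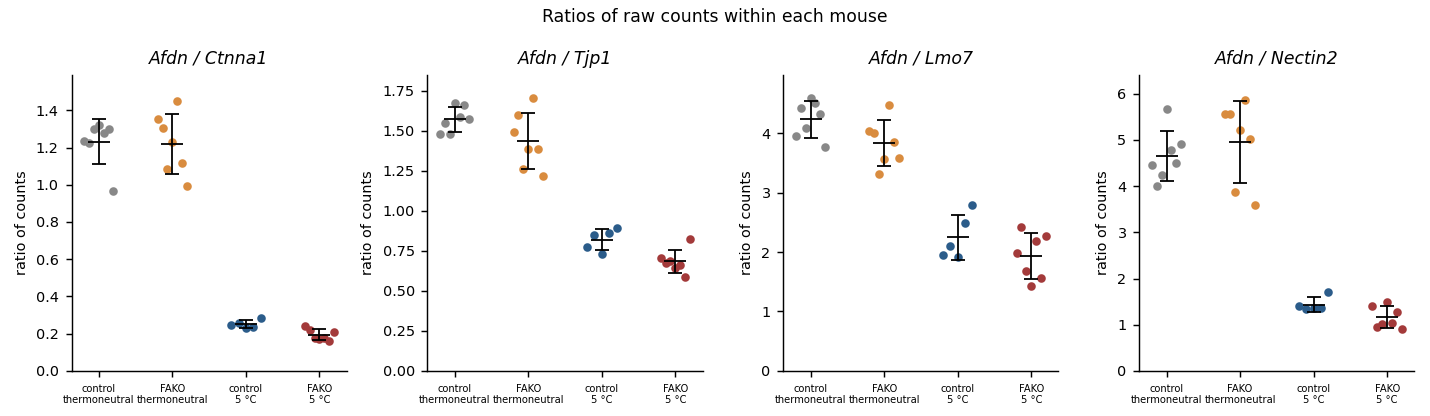
Ratio of Afdn counts to those of Ctnna1, Tjp1, Lmo7 and Nectin2 within each mouse, with 1 point per mouse and the mean and SD of each group. In all 4 panels the mice after cold lie below the mice at thermoneutrality, for Ctnna1 at 0.159 to 0.282 against 0.966 to 1.45.

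The 5 genes whose pattern over the 26 mice was most like that of Afdn were Wdr19, Arhgap18, Agrn, Cep250 and Pdzd2. Likeness was the root mean square difference in log2 CPM, centred on each gene's mean, among 14245 genes, and it ran from 0.162 for Wdr19 to 0.186 for Pdzd2. Wdr19 (intraflagellar transport) had a mean of 11.1 CPM at thermoneutrality and 3.54 CPM after cold in control mice, and Agrn (agrin, a basement membrane proteoglycan) had 70.3 and 24.8 CPM. Of the junction genes followed here, Lmo7 (0.534) and Tjp1 (0.536) came nearest to Afdn, at ranks 2282 and 2311, and Ctnna1 was far off, at rank 12311. This is a description with no test, and the points share the 4 groups.

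Beyond the 9 genes, 131 other genes of cell junctions were listed, and 100 of them were tested. In control mice 32 rose (31.6% of all genes did) and 37 fell (33.4%) with cold, with a median log2 fold change of -0.13 against -0.01 over all genes. The mice labelled FAKO had 33 that rose (33.7% of all genes) and 37 that fell (34.9%), with a median of -0.11 against -0.03. These counts lie near the shares over all genes, against which the counts of each list below are also to be read. Scaled by library size alone, where the median of all genes in mice labelled FAKO was -0.34, the split was 15 and 51, and with upper-quartile factors 24 and 44. A total of 59 genes passed in both genotypes, all 59 with the same sign. Over all genes 65% passed in control mice and 68.6% in mice labelled FAKO. The share of all genes that passed in both with the same sign was not counted. Whether the 59 are particular to junction genes was thus not tested. For the label, 0 of the 100 passed in edgeR at thermoneutrality, with 6 at an unadjusted p below 0.05 (7.65% of all genes), and 0 passed after cold, with 13 (13.4% of all genes). DESeq2 called 0 of them at either temperature, where it called 48 of all 17286 genes at thermoneutrality and 197 after cold. The difference of the cold responses had 0 past the threshold in edgeR and 16 at an unadjusted p below 0.05 (16.2% of all genes). For the difference DESeq2 called 1 of them, Pard3, where it called 488 of all 17286 genes.

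**Figure D5:**
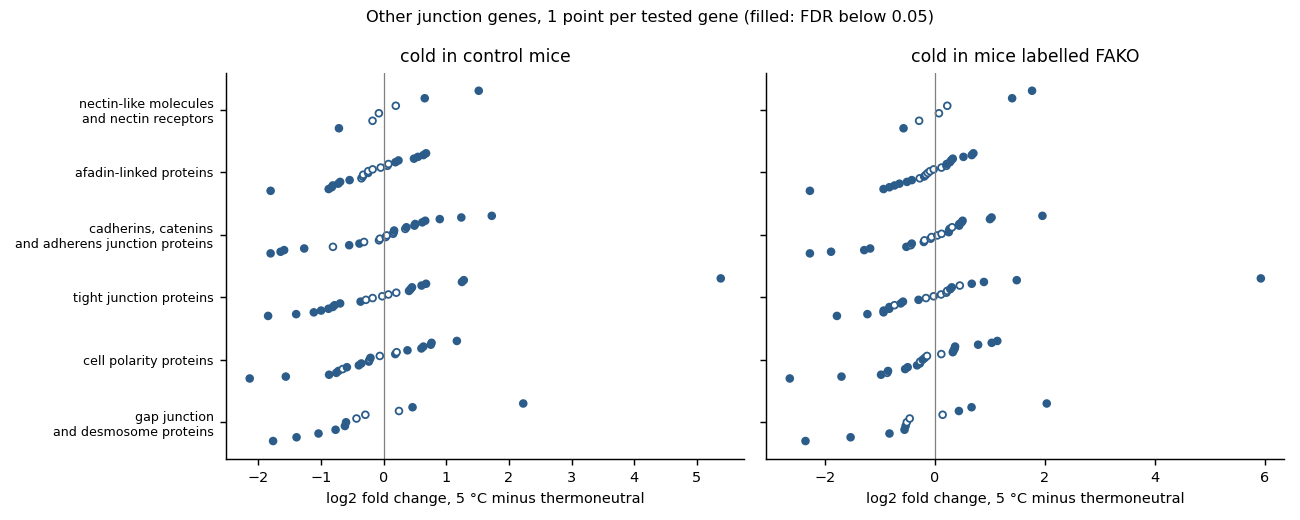
Log2 fold change with cold of the tested genes of 6 junction lists, with 1 point per gene, filled where the FDR was below 0.05. Genes of each list lie on both sides of 0, and Cldn1 stands apart at 5.38 in control mice and 5.92 in mice labelled FAKO.

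Among the 22 tested afadin-linked genes, 6 rose, 8 fell and 8 did not pass in control mice, and 7 rose and 8 fell in mice labelled FAKO, where 3 rose with library size alone. Among all genes, 31.6% rose and 33.4% fell in control mice and 33.7% rose and 34.9% fell in mice labelled FAKO. Pard3, a polarity scaffold, rose from 29.6 to 45.9 CPM in control mice. Jam2, a junctional adhesion molecule, fell from 76.6 to 47.3 CPM. In mice labelled FAKO the means were 31.7 and 39.7 CPM for Pard3 and 85.8 and 48.3 CPM for Jam2, and both passed with the same sign. The increase of Pard3 in mice labelled FAKO (log2 fold change 0.32) was 0.0026 and not called with library size alone.

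Of the 6 tested nectin-like molecules and nectin receptors, 2 rose, 1 fell and 3 did not pass in control mice, with the same counts but not the same gene falling in mice labelled FAKO. Over all genes 31.6% rose and 33.4% fell in control mice, and 33.7% rose and 34.9% fell in mice labelled FAKO. Pvr, the poliovirus receptor homologue that binds nectin-3, rose from 10.1 ± 1.25 to 28.8 ± 5.39 CPM in control mice (SD, n = 7 and n = 5) and from 9.82 ± 1.69 to 33.3 ± 15.5 CPM in mice labelled FAKO (SD, n = 7 each). Cadm3, another nectin-like adhesion molecule, had log2 fold changes of 0.65 and 1.40, and rose in both genotypes. Cd226, a receptor of lymphocytes that binds nectin-2 and Pvr, fell by 0.71 in control mice (adjusted p = 0.0401, edgeR quasi-likelihood test, Benjamini-Hochberg), a call lost when any of 7 mice was left out (highest adjusted p 0.088). The sum of the lymphocyte markers in control mice was 26.2 to 67.3 CPM (median 34.5) at thermoneutrality and 16.8 to 25.2 CPM (median 21.6) after cold. In mice labelled FAKO this sum was 30.0 to 50.1 CPM (median 39.2) and 15.4 to 75.0 CPM (median 24.8). Its part in the level of Cd226 was not tested. In mice labelled FAKO the log2 fold change of Cd226 was 0.22 (adjusted p = 0.457, edgeR). The gene that fell there was Cadm2, a nectin-like adhesion molecule named after its values were seen (log2 fold change -0.57, adjusted p = 0.00895, edgeR). That count of 1 became 2 in 4 alternatives (library size alone, upper-quartile factors, at least 10 counts in every mouse, and only the groups compared) and when any of 7 mice was left out (replicates 9, 12, 13 and 14 at thermoneutrality and 22, 24 and 25 after cold).

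Of 24 cadherins, catenins and adherens junction genes, 9 rose and 6 fell in control mice (31.6 and 33.4% of all genes), and 10 rose and 7 fell in mice labelled FAKO (33.7 and 34.9% of all genes). Pkp4, an armadillo protein of junctions, rose from 48.2 to 113.8 CPM in control mice and from 54.9 to 109.6 CPM in mice labelled FAKO. Cdh2, the N-cadherin gene, fell from 58.1 to 18.5 CPM and from 61.1 to 16.5 CPM. Ctnnal1, an alpha-catenin-like gene, fell from 16.6 to 5.51 CPM and from 14.2 to 6.25 CPM. In mice labelled FAKO only 3 genes of this list rose with library size alone and 6 with upper-quartile factors.

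Of 22 tight junction genes, 8 rose and 9 fell in control mice (31.6 and 33.4% of all genes), and 6 rose and 9 fell in mice labelled FAKO (33.7 and 34.9% of all genes). Cldn1, which encodes the sealing protein claudin-1, rose from 2.16 ± 0.917 to 88.6 ± 20.1 CPM in control mice (SD, n = 7 and n = 5) and from 2.05 ± 0.952 to 125 ± 36.7 CPM in mice labelled FAKO (SD, n = 7 each). Its log2 fold change was 5.38 (SE 0.29, adjusted p = 1.03e-14, edgeR quasi-likelihood test, Benjamini-Hochberg) in control mice. Amotl2, an angiomotin-like scaffold, fell by 1.85 and 1.78 log2 units, and Cgnl1, which encodes paracingulin, by 1.40 and 1.23, in control mice and mice labelled FAKO.

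In both genotypes 7 of 21 polarity genes rose and 10 fell, and with library size alone 3 rose in mice labelled FAKO. Over all genes 31.6% rose and 33.4% fell in control mice, and 33.7% rose and 34.9% fell in mice labelled FAKO. Dlg1, a membrane-bound scaffold, rose by 1.17 and 1.13 log2 units in control mice and mice labelled FAKO, and Lin7c by 0.75 and 0.78. Of 11 gap junction and desmosome genes, 2 rose and 6 fell in control mice, and 3 rose and 5 fell in mice labelled FAKO. With at least 10 counts in every mouse 3 fell in either genotype. That filter keeps 12718 of all genes in place of 17286, and any gene of this list that it removes is not tested. In mice labelled FAKO 2 fell with only the groups compared, and 1 rose with library size alone. Gja1, the connexin 43 gene, rose from 117 to 547.9 CPM and from 113.8 to 465.2 CPM. Pkp2, a desmosome plakophilin, fell by 1.04 in control mice and had a log2 fold change of -0.46 in mice labelled FAKO (adjusted p = 0.0737, edgeR quasi-likelihood test, Benjamini-Hochberg). That value passed in 4 alternatives (adjusted p in edgeR of 0.00514 with library size alone, 0.014 with upper-quartile factors, 0.0377 with at least 10 counts in every mouse and 0.0284 with the muscle score). It also passed without replicate 13 at thermoneutrality (-0.56) or replicate 27 after cold (-0.87). Gja4, a connexin of arteries, fell by 0.60 and 0.55.

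Exons of 3 of the 9 genes overlap another gene on the opposite strand. The shared bases were 2.16% of the Afdn exons (with Tcte2, 5 to 83 counts per mouse), 3.86% of the Nectin2 exons (with Gm20512, 0 to 13 counts) and 1.48% of the Ctnna1 exons (with Lrrtm2, 83 to 274 counts). The library kit marks strand, but the strand setting of the counting is not given in the sources used here.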

How the data were processed

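RNA-sequencing counts of BAT from 26 male mice were used, and each sample's own labels gave its group. Reads were aligned by the authors with STAR 2.5.2b (mm10) and assigned to genes of GENCODE M13 with featureCounts 1.5.2, and the deposited values are raw counts without normalization. Gene names and positions were taken from GENCODE M21, which gave a symbol to 50376 of 50686 genes, and promoter windows from RefSeq.

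The filter of filterByExpr left 17286 genes. They were tested in R 4.3.3 with edgeR 4.0.16 (limma 3.58.1), in the legacy quasi-likelihood mode, with 1 coefficient per group, TMM scaling and Benjamini-Hochberg adjustment over all genes tested, at an FDR below 0.05. Standard errors and 95% intervals were derived from the F statistic and its degrees of freedom. Log2 CPM had a prior count of 2. All 73 pairs of mice of the same group differed by more than sampling noise (lowest chi-square per gene 4.92). Steps were tested on simulated counts.

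The 9 genes and the lists were chosen with earlier results of these data known. From each junction list, the 3 genes with the lowest p for cold in control mice, a mean of at least 1 CPM and an FDR below 0.05 are named, except 1 gene that is not reported here. Alternatives were DESeq2 1.42.0, other scalings, filters and fits, and leaving out each mouse in turn. A muscle score as a covariate and the removal of mitochondrial genes were added after seeing the data.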

Additional observations from a re-analysis of the deposited data

Results flagged for a closer look

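Of 36 sets of values, 9 genes in 4 groups, 3 held a mouse whose gap to its nearest neighbour was a large part of the range of the set. A test of this kind marks about 1 set in 20 by chance. Replicate 7 of the control mice at thermoneutrality was lowest for Afdn, at 151.5 CPM with the next mouse at 193.8, and for Tjp1, at 96.2 CPM with the next at 126.4. In that library mitochondrial transcripts took 14.3% of the counts, and its skeletal muscle markers summed to 5857 CPM, the highest of its group. Its fibroblast and preadipocyte markers (2990.5 CPM) were also the highest of its group. Its endothelial (846.3 CPM) and mural cell markers (701.2 CPM) were the lowest, and its TMM factor (1.29) was the highest of all mice. Their part in its Afdn and Tjp1 levels was not tested. Replicate 18 of the control mice after cold was highest for Tjp1, at 97.8 CPM with the next mouse at 89.0. Without replicate 7, or any other 1 control mouse of these groups, the cold response in control mice stayed between -1.496 and -1.39 for Afdn and between -0.55 and -0.46 for Tjp1 on the log2 scale, and each of these fits passed the threshold.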

How the results depend on the processing

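The cold responses of Afdn, Tjp1, Ctnna1 and Lmo7 passed the threshold in both genotypes under every alternative tried, including each mouse left out. With library size alone the median log2 fold change of all genes was -0.14 and -0.34 for cold in control mice and mice labelled FAKO, 0.13 and -0.03 for the label at thermoneutrality and after cold, and -0.15 for the difference. Under it the sign turned for Nectin3 (-0.0017 in control mice and -0.25 in mice labelled FAKO) and Cd226 (-0.054 in mice labelled FAKO) with cold, for Afdn (0.15), Nectin2 (0.0505), Nectin3 (0.12) and Ssx2ip (0.13) at thermoneutrality, for Nectin1 (-0.042) and Nectin2 (-0.0045) after cold, and for Nectin2 (-0.055) and Ctnna1 (-0.14) in the difference. With upper-quartile factors it turned for Nectin3 with cold in mice labelled FAKO (-0.095), for Afdn (0.021) and Ssx2ip (0.014) at thermoneutrality, and for Nectin1 after cold (-0.0056). Afdn at thermoneutrality was 0.0039 with every gene of at least 1 count, 0.0020 with at least 10 counts in every mouse and 0.0052 with only the groups compared.

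The number of all genes called for the label was 14 at thermoneutrality, against 34 with library size alone, 48 with DESeq2 and 9 with every gene of at least 1 count. After cold it was 24, against 5, 197 and 15, and 45 with at least 10 counts in every mouse and 9 with only the groups compared. For the difference it was 200, against 488 with DESeq2 and 27 with every gene of at least 1 count. DESeq2 called 1 of the 9 junction genes after cold, Afdn. With a mouse left out, these numbers ran from 7 to 93, from 7 to 100 and from 49 to 371. They moved by over 1.5 times without replicate 2, 3, 6, 7 or 13 at thermoneutrality, and without replicate 17, 18, 19, 21, 22, 24, 25 or 27 after cold. For the difference the same held without replicate 2, 4, 6, 7, 8, 10, 11, 16, 17, 18, 19, 21, 22 or 24. Of the 9 junction genes, the number called with a mouse left out ran from 4 to 6 for cold in control mice and from 6 to 7 in mice labelled FAKO. It was 0 for the label and the difference in each of those fits. Over the other alternatives it ran from 4 to 6 and from 5 to 7 for cold.

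Leaving out a mouse gave Ssx2ip -0.13 to 0.022 with cold in control mice. At thermoneutrality it gave Afdn -0.048 to 0.056, Nectin1 -0.26 to 0.0041, Nectin3 -0.078 to 0.013, Ctnna1 -0.0076 to 0.028 and Ssx2ip -0.0725 to 0.065, and after cold Nectin1 -0.084 to 0.11 and Nectin2 -0.045 to 0.097. Nectin2 in control mice passed without replicate 2 or 21 and with the muscle score (adjusted p = 0.0268, edgeR). Pkp2 in mice labelled FAKO passed without replicate 13 or 27. The causes were not tested. No paired analysis was possible because the groups share no replicate numbers. Depth limits Nectin4 (2 to 15 counts) and Nectin1 (14 to 47 counts) most.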
